A study of Mus musculus with 2 samples.

Results

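The genes described here are 7 that make, sense or clear extracellular ATP and adenosine, and P2ry10, a receptor of the P2Y family. The 8 were Entpd1 (CD39), Nt5e (CD73), Adora2a, Adora2b, P2rx4, P2rx7, P2ry10 and Ada, chosen by name for their place in the pathway, and all 8 were among the 24421 genes of the deposited tables. Their RNA was measured in Th1 cells, the IFNγ-producing class of helper T cells, in 1 library labelled WT and 1 library labelled Chi3l1 KO. Both came from mice of the C57BL/6J background, aged 6 to 8 weeks and of either sex, with Chi3l1+/+ mice as WT and whole-body Chi3l1-/- mice as Chi3l1 KO. In both groups, CD4+CD25-CD62L+ naive T cells were activated with anti-CD3 and anti-CD28 antibodies and skewed with IL-12, IL-2 and an IL-4-blocking antibody. The methods describe cultures of 3 or 5 days without stating which were sequenced, and whether each RNA came from 1 mouse or from a pool is not given in the sources used here.

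ATP released by activated or damaged cells opens P2X channels on the T cell surface, and P2X7, which needs much ATP, is known for calcium entry, shedding of surface proteins and T cell death. CD39 cuts ATP and ADP to AMP, and CD73 cuts AMP to adenosine. Adenosine binds the A2a and A2b receptors, which raise cyclic AMP and restrain T cell activation, until adenosine deaminase turns it into inosine. P2RY10 carries the name of a nucleotide receptor but is known to respond to lysophosphatidylserine.

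The tables gave 1 value per gene and library, taken here to be a normalized count plus 1 on the log2 scale, and the log2 fold change was the value in the library labelled Chi3l1 KO minus the value in the library labelled WT. Read counts rebuilt from the steps of the low values summed to 70711509 in the library labelled WT and 63056678 in that labelled Chi3l1 KO, and 3 reads stood at a log2 value of 1.96 in each. The targeted gene went against its label. Chi3l1, listed as Chil1, had a log2 value of 0.94 (1 read) in the library labelled WT and 6.66 (103 reads) in the library labelled Chi3l1 KO. These are values per gene, so the exons behind the reads cannot be seen, and each direction given here is between the libraries as labelled. Whether the labels were exchanged was not tested. With 1 library per genotype no difference has a replicate check and no test was made. The 95% interval given with a fold change is the exact Clopper-Pearson interval of the ratio of rebuilt reads, which covers the sampling of reads only and not the spread between mice or cultures. In whole cultures, fewer cells of a type and less RNA per cell cannot be told apart.

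Of the 8 genes, Entpd1 and P2rx4 had higher values in the library labelled Chi3l1 KO and the other 6 had lower ones, of which Adora2a and Ada changed sign under some of the scalings given below with each gene. No member reached a 2-fold difference in either direction, where 4.70% of all 24421 genes were at or past 2-fold higher and 5.81% at or past 2-fold lower. Every member reached a log2 value of 6 in 1 library or both, and of the 11496 genes at that level 1.91% were at or past 2-fold higher and 2.49% lower. At 1.5-fold, 1 member was higher (Entpd1) and 1 was lower (P2rx7), which is 12.5% of the members in each direction beside 7.23% and 9.26% of those 11496 genes. The median log2 fold change was -0.23 over the 8 genes and -0.01 over the 11496.

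**Figure D1:**
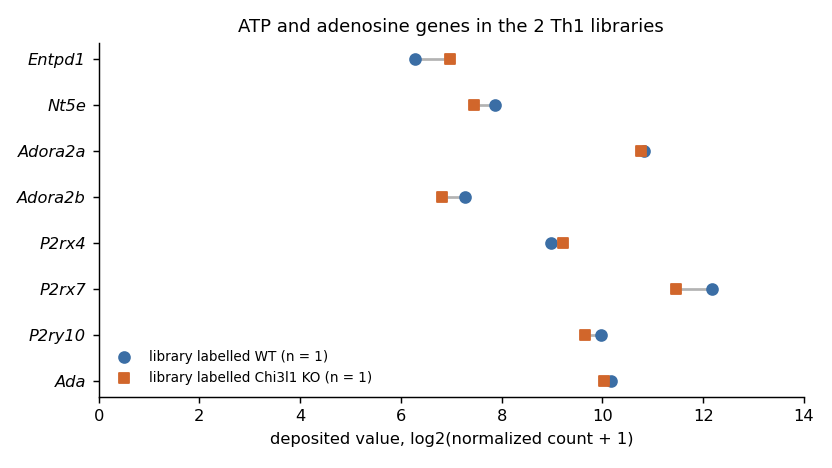
Deposited log2 value of each of the 8 genes (x axis, log2 of the normalized count plus 1) in the library labelled WT (circle) and the library labelled Chi3l1 KO (square), 1 library each, joined by a line. The longest lines belong to P2rx7, with 12.17 and 11.46, and Entpd1, with 6.28 and 6.97.

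The start regions of 4 genes are printed, those of Entpd1 and P2rx7 because they were the members past 1.5-fold, and those of P2ry10 and Ada because they held a searched motif. Each is the 250 bases before a RefSeq transcription start (GRCm38.p6), written 5' to 3' on the gene's strand, with motif matches in capitals.
Entpd1 promoter, chr19:40612116-40612365, plus strand: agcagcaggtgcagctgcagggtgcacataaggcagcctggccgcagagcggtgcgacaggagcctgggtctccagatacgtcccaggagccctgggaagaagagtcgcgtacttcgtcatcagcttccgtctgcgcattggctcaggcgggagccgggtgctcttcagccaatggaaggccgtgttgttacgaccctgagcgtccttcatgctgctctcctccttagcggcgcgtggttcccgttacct
P2rx7 promoter, chr5:122643677-122643926, plus strand: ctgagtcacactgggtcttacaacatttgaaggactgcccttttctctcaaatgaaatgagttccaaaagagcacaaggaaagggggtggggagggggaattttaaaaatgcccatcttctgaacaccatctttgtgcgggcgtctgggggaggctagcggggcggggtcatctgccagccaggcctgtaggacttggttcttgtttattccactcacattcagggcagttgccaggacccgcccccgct
P2ry10 promoter, chrX:107088242-107088491, plus strand: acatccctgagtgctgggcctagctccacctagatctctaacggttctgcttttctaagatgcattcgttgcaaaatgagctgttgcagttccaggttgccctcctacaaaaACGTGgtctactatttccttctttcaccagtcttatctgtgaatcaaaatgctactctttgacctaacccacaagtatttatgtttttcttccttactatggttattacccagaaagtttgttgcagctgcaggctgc
Ada promoter, chr2:163750240-163750489, minus strand: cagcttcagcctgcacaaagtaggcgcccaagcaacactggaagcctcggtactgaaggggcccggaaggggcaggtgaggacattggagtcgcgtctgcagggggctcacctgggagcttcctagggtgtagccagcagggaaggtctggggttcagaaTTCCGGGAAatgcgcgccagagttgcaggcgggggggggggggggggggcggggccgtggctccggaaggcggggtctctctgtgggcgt
Motifs were searched on both strands in 10 starts of 7 members, and Adora2a had no entry. Entpd1, P2rx7 and P2ry10 each had another start, which is not printed and held none of the searched motifs. The cyclic AMP response element TGACGTCA, which 1.55% of 32851 promoters of this length hold, was in none of the 10. The hypoxia response element core ACGTG, held by 16.6%, was in the P2ry10 start printed, with its first base at position -138 from the start. The gamma-activated site TTCNNNGAA, held by 7.02%, was in the Ada start at position -90. These are matches of letters in these windows and not measured sites.

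The values of the ectonucleotidases differed in opposite directions. Entpd1 encodes CD39, the enzyme of the first step from ATP toward AMP (GRCm38, chromosome 19, 40612366 to 40741602, plus strand, with 10 exons in its longest coding transcript). Its log2 value was 6.28 (79 reads) in the library labelled WT and 6.97 (128 reads) in the library labelled Chi3l1 KO, a log2 fold change of 0.69 (95% interval 0.28 to 1.12). It had the fewest reads of the 8 genes in the library labelled WT, and 30.4% of the 2403 genes with a mean log2 value under 8 that reached 6 in a library differed as much in either direction. Nt5e encodes CD73, which makes adenosine from AMP (chromosome 9, 88327197 to 88372092, plus strand, 9 exons). Its log2 value was 7.87 (240 reads) in the library labelled WT and 7.45 (180 reads) in the library labelled Chi3l1 KO, a log2 fold change of -0.42 (-0.71 to -0.13). Of the same 2403 genes, 51.5% differed as much as Nt5e in either direction. Both signs held under all 6 alternative settings (a pseudocount of 0.1, median-ratio scaling, quantile normalization, setting Actb equal, scaling to total reads without the ribosomal precursor Rn45s, and removal of the trend with GC content), with ranges of 0.54 to 0.83 for Entpd1 and -0.49 to -0.28 for Nt5e. With the GC trend removed Entpd1, at 0.54, was within 1.5-fold. Per kilobase of longest transcript, Nt5e stood at 58.3 and Entpd1 at 18.1 normalized counts in the library labelled WT, a ratio of 3.21. In the library labelled Chi3l1 KO they stood at 43.6 and 29.4, a ratio of 1.49.

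Markers of other cell types differed in direction from list to list, and only the B cell list was higher throughout in the library labelled Chi3l1 KO. All 6 of the 6 B cell markers listed were higher in the library labelled Chi3l1 KO, by 0.27 to 1.32 on the log2 scale, and their summed log2 value was 10.11 in the library labelled WT and 11.02 in that labelled Chi3l1 KO. Of the regulatory T cell markers, 4 of 6 were higher and their summed log2 value was 16.54 and 16.73. Foxp3, their lineage factor, was at 10.94 and 11.66 and Ikzf2 at 7.35 and 8.26. Ctla4 was at 13.99 and 14.15, and Il2ra, the highest of the list, at 15.83 and 16.07. Il2ra alone had 60092 of the 98456 reads of the list in the library labelled WT. In the library labelled Chi3l1 KO it had 71412 of 112424, so the sum mostly follows Il2ra. The lower ones were Gpr83, by -0.39, and Tnfrsf18, by -0.05 on the log2 scale. Both cell types are known to carry CD39, the CD4+CD25-CD62L+ isolation before culture would remove B cells and CD25+ regulatory T cells, and their part in the Entpd1 value was not tested. Of 7 monocyte and macrophage markers, 2 were higher and 4 lower (summed 9.07 and 8.87), with Adgre1 at 0 in both libraries. Of the 6 dendritic cell markers, 3 were higher and 1 lower (summed 6.22 and 6.94), and Clec9a and Siglech were at 0 in both. In reads, the higher were Flt3 (18 and 68), Zbtb46 (14 and 48) and Xcr1 (0 and 5), and the lower was Itgax (44 and 5). The neutrophil list came to 61 reads in the library labelled WT and 5 reads in that labelled Chi3l1 KO, and the NK cell list had 3 genes higher and 1 lower. The labelled cell type was checked on T cell and Th1 genes. All 6 T cell markers were above 0 in both and lower in the library labelled Chi3l1 KO. Their log2 fold changes were -0.53 to 0.00 and their summed value was 17.55 and 17.40. The intervals of Lck (-0.002) and Cd3d (-0.025) included 0, and no alternative settings are given for the markers. The 6 Th1 markers were above 0 in both libraries as well (4 higher, 2 lower, summed 15.33 and 15.61). Among the higher was Ifng, with 3486 reads in the library labelled WT and 8742 in that labelled Chi3l1 KO. The 2 lower were Tbx21 (16692 and 13919 reads) and Cxcr3 (274 and 116 reads). Of 6 naive T cell markers, 5 were lower and 1 higher (summed 18.00 and 17.72), with the factors Tcf7 at -0.61 and Lef1 at -0.44 on the log2 scale, in the same direction as the lower members, and their part was not tested. Of the CD8 T cell genes, Cd8a differed by 0.60 and Cd8b1 by -0.47 (summed 9.67 and 9.66).

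The adenosine receptors differed far more in level than between the libraries. Adora2a, the high-affinity A2a receptor (chromosome 10, 75316877 to 75334784, plus strand, 3 exons), had a log2 value of 10.82 (1870 reads) in the library labelled WT and 10.77 (1809 reads) in that labelled Chi3l1 KO. Its log2 fold change of -0.05 (-0.14 to 0.04) was the only one of the 8 whose interval included 0. The sign of the Adora2a difference held under 3 of the 6 settings and turned positive under scaling to Actb (0.06), to total reads without Rn45s (0.09) and with the GC trend removed (0.32), so no direction is given for it. Adora2b, the A2b receptor of lower affinity (chromosome 11, 62248984 to 62266453, plus strand, 2 exons), had a log2 value of 7.28 (159 reads) in the library labelled WT and 6.81 (115 reads) in that labelled Chi3l1 KO. The log2 fold change of -0.47 (-0.83 to -0.12) kept its sign under all 6, from -0.47 to -0.33. Of the 2403 genes with a mean log2 value under 8 that reached 6 in a library, 45.5% differed as much in either direction. Per kilobase, Adora2a was at 697 and Adora2b at 83.6 normalized counts in the library labelled WT, and at 673 and 60.4 in that labelled Chi3l1 KO. The A2a to A2b ratio was thus 8.34 and 11.2.

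The ATP-gated channels P2rx7 and P2rx4 lie on chromosome 5 on the same strand, with 16.1 kb between the end of the first (122643911 to 122691432, 13 exons) and the start of the second (122707544 to 122729738, 12 exons). P2rx7 had the highest log2 value of the 8 genes in both libraries, at 12.17 (4766 reads) in the library labelled WT and 11.46 (2923 reads) in that labelled Chi3l1 KO. Its log2 fold change of -0.71 (-0.78 to -0.64) was the most negative of the 8, the level in the library labelled WT being 1.63 times that in the other. Among the 6059 genes with a mean log2 value of at least 10, 3.99% differed as much in either direction. The sign held under all 6 settings (-0.72 to -0.57), although scaling to total reads without Rn45s brought it under 1.5-fold. P2rx4, the more readily opened channel, had a log2 value of 8.98 (522 reads) in the library labelled WT and 9.21 (612 reads) in that labelled Chi3l1 KO, a log2 fold change of 0.23 (0.06 to 0.40) that stayed positive under all 6 (0.16 to 0.37). The neighbouring channel genes therefore differed in opposite directions between these libraries. For P2rx4 the size was common at its level. Of the 3034 genes with a mean log2 value from 8 to under 10, 60.6% differed as much in either direction. Per kilobase of longest transcript, P2rx7 was at 935 and P2rx4 at 130 normalized counts in the library labelled WT, a ratio of 7.20, and at 572 and 152 in the library labelled Chi3l1 KO, a ratio of 3.77. The longest P2rx4 transcript is a retained-intron form, and with the longest coding transcript, a choice made after the values were seen, the ratios were 5.0 and 2.6.

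The microRNA gene Mir8115, named after its value was seen, lies within exon 13 of P2rx7 on the same strand (chromosome 5, 122682597 to 122682715). It was listed at a log2 value of 5.48 (45 reads) in the library labelled WT and 6.45 (89 reads) in the library labelled Chi3l1 KO, which is opposite in direction to P2rx7. Of the 4837 stretches of 100 bases in the longest P2rx7 transcript, 20 also occur in Mir8115, so reads there can be counted for either gene and the Mir8115 value is uncertain. The same count was 0 for 6 other members.

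P2ry10 and Ada had log2 fold changes of smaller size. P2ry10 (chromosome X, 107088492 to 107104974, plus strand, 3 exons) had a log2 value of 9.98 (1042 reads) in the library labelled WT and 9.65 (833 reads) in that labelled Chi3l1 KO. The log2 fold change of -0.33 (-0.46 to -0.19) stayed negative under all 6 settings, from -0.56 to -0.18. Of the 3034 genes with a mean log2 value from 8 to under 10, 45.2% differed as much as P2ry10 in either direction. Its close relative P2ry10b starts 44.0 kb after its end and shares 61 of the 2789 stretches of 100 bases (2.19%), so reads of the pair could be mixed in that share. P2ry10b had no value of its own here. Ada, which removes adenosine and whose inherited loss is known to cause severe combined immunodeficiency in humans (chromosome 2, 163726584 to 163750239, minus strand, 12 exons), had a log2 value of 10.17 (1187 reads) in the library labelled WT and 10.03 (1079 reads) in that labelled Chi3l1 KO. The log2 fold change of -0.14 (-0.26 to -0.02) was matched or exceeded in size by 66.9% of the genes with a mean log2 value of at least 10, and it came to -0.03 under scaling to Actb, -0.02 with the GC trend removed and 0.00 under total reads without Rn45s, so no direction is given for Ada.

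**Figure D2:**
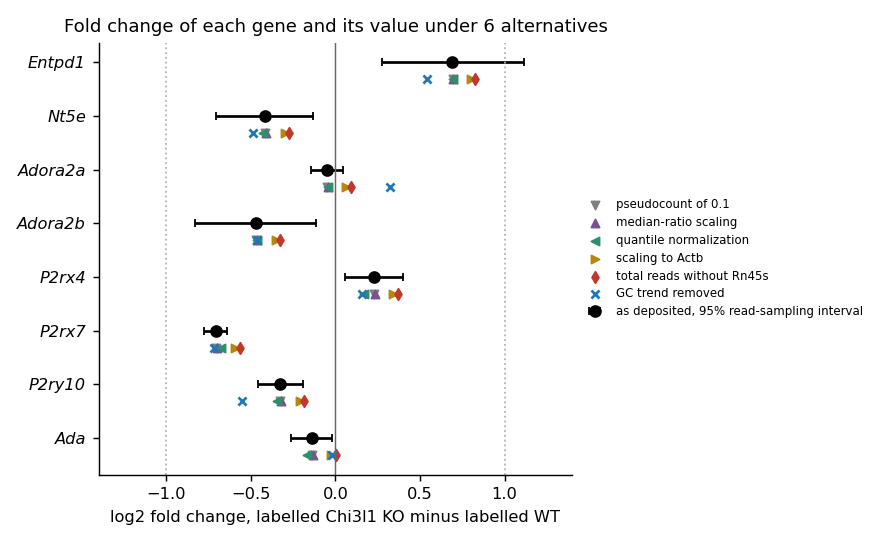
Log2 fold change of each gene (x axis, labelled Chi3l1 KO minus labelled WT), with the deposited value as a black point, its 95% read-sampling interval as a bar, and the 6 alternative settings as coloured marks under it; dotted lines mark 2-fold. Entpd1 at 0.69 and P2rx7 at -0.71 lie on opposite sides of 0 under each of the 6, and only the marks of Adora2a and Ada lie on both sides.

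Ranked by normalized count per kilobase of longest transcript, the order in the library labelled WT was P2rx7, Adora2a, Ada, P2ry10, P2rx4, Adora2b, Nt5e and Entpd1. In the library labelled Chi3l1 KO, Adora2a (673) and Ada (618) stood above P2rx7 (572) and the other 5 kept their places. The neighbours Adora2a and Ada were close in both libraries, at 697 and 681 in the library labelled WT. With 1 library each, no spread is known against which neighbours could be told apart. Per kilobase, P2rx7 had a higher level than 76.7% of the genes above 0 with a known length in the library labelled WT and than 68.6% in that labelled Chi3l1 KO, and Entpd1 than 23.3% and 27.1%.

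**Figure D3:**
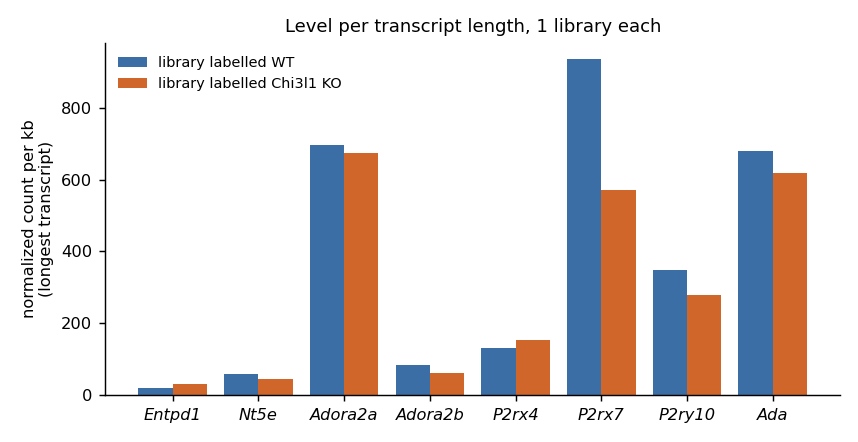
Normalized count per kilobase of longest transcript (y axis, linear from 0) for each gene in the library labelled WT (blue) and the library labelled Chi3l1 KO (orange), 1 library each with no error bar. P2rx7 stands at 935 in the first and at 572 in the second, there below Adora2a (673) and Ada (618), and Entpd1 is the lowest bar in both libraries.

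The transcripts of the 8 genes differ in base composition, from 36.9% GC in P2ry10 to 59.2% in Adora2a. Those 2 genes moved most when the trend of fold change with GC content was removed, P2ry10 from -0.33 to -0.56 and Adora2a from -0.05 to 0.32. Entpd1 (44.7% GC) and P2rx7 (50.1%) lie between them and kept their signs.

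**Figure D4:**
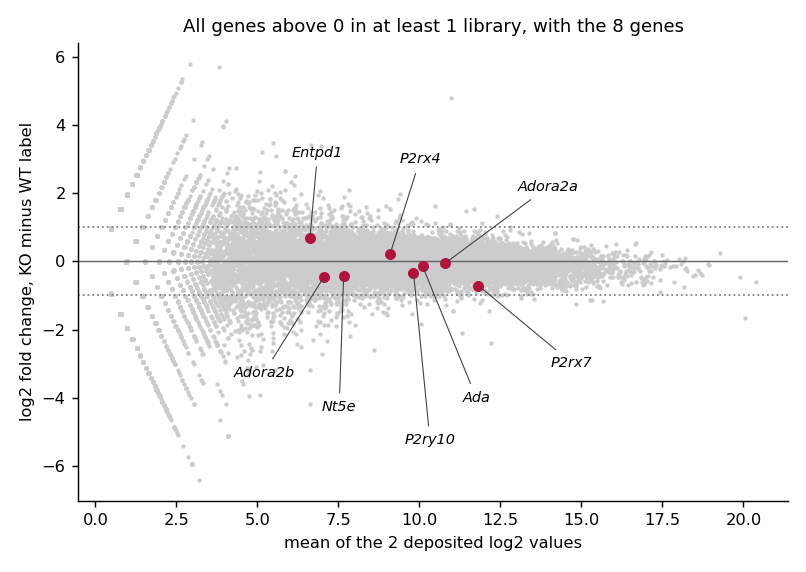
Log2 fold change (y axis, labelled Chi3l1 KO minus labelled WT) against the mean of the deposited log2 values (x axis) for the 16148 genes above 0 in at least 1 library (grey) and the 8 genes (red, with lines to their names); dotted lines mark 2-fold. All 8 lie between the dotted lines, and P2rx7 at -0.71 lies low in a narrow part of the grey cloud while Entpd1 at 0.69 lies in a wide part of it.

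The wider pathway was described with a list of 55 genes, of which 53 were in the tables and 49 above 0. Of these, 19 were higher and 30 lower in the library labelled Chi3l1 KO. The median log2 fold change was -0.07, beside -0.007 over the 16148 genes above 0. Differences near 0, such as P2rx2 (-0.003), and genes with few reads, such as Adora3 (1 and 0), are in this count. Scaling to Actb or to total reads without Rn45s shifts values by more than this median (0.12 and 0.14). The same direction count over all genes was not made, so no tendency of the pathway is read from it. At or past 2-fold, 3 were higher (P2rx3, P2ry13 and Adora1) and 6 lower (Entpd2, Entpd3, Gja1, P2rx1, P2rx5 and P2ry6), which is 5.66% and 11.3% of the 53 beside 4.70% and 5.81% of all genes. The counts were 6 higher and 4 lower under scaling to Actb or to total reads without Rn45s, and 6 and 5 under quantile normalization. Of these 9 genes, all but P2rx3 and Gja1 were at 11 reads or fewer in both libraries. Entpd3, P2rx1 and P2ry6 had 3 reads in the library labelled WT and 0 in the other, which is the floor of 3 reads per library, so no fold is given for them. Among the 34 that reached a log2 value of 5 in 1 library or both, 1 was higher and 1 lower, beside 2.60% and 3.48% of the 12396 genes at that level. The higher gene was P2rx3, an ATP-gated channel best known from sensory neurons, with a log2 value of 4.91 (30 reads) in the library labelled WT and 6.33 (82 reads) in that labelled Chi3l1 KO, a log2 fold change of 1.42 (0.83 to 2.10). The lower gene was Gja1, the gap junction protein connexin 43 whose hemichannels pass ATP, with 7.76 (224 reads) and 6.67 (104 reads), a log2 fold change of -1.10 (-1.46 to -0.77) that was within 2-fold under scaling to Actb (-0.98) or to total reads without Rn45s (-0.96). The part of the other cell types in either value was not tested.

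**Figure D5:**
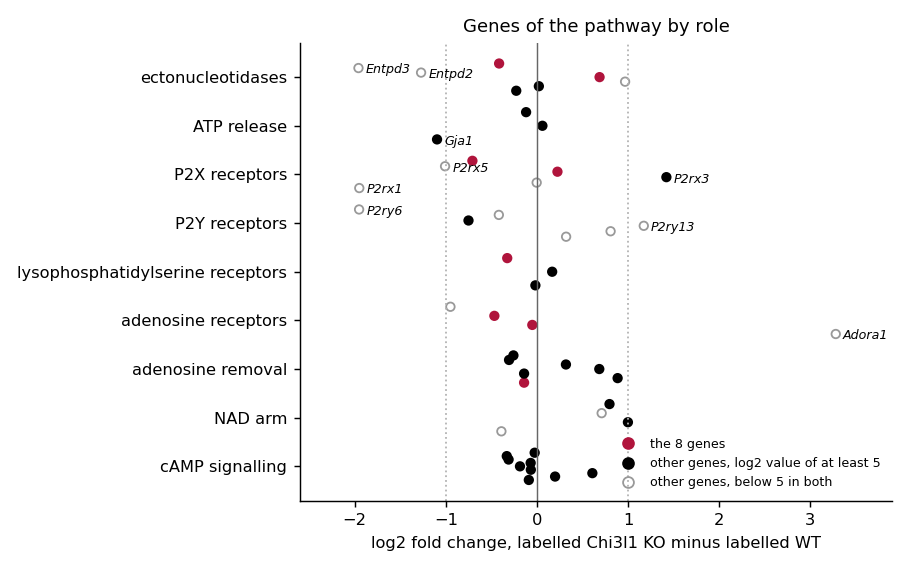
Log2 fold change (x axis, labelled Chi3l1 KO minus labelled WT) of the 49 pathway genes above 0, grouped by role: the 8 genes in red, others that reached a log2 value of 5 in black, and those below 5 in both libraries as open circles. Names mark genes at or past 2-fold, and the filled ones among them are P2rx3 at 1.42 and Gja1 at -1.10.

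By role, 3 of the 7 ectonucleotidases above 0 were higher and 4 lower. The one with the highest value, the pyrophosphatase Enpp1, was at 10.41 and 10.43 in the libraries labelled WT and Chi3l1 KO. Entpd2 (11 and 4 reads), Entpd3 (3 and 0) and Enpp3 (0 and 1) rested on few reads, with intervals that include 0. Of the 3 ATP release genes 1 was higher and 2 lower, with the channel Panx1 at 11.60 and 11.66. The P2X receptors had 2 higher and 4 lower, and the P2Y receptors 3 of each. Of the 4 lower P2X genes, P2rx1 (3 and 0 reads), P2rx2 (5 and 5) and P2rx5 (5 and 2) had few reads and intervals that include 0. All P2Y receptors but P2ry14 were at 31 reads or fewer in both libraries, also with intervals that include 0. The P2Y receptor with the highest value was P2ry14, the receptor for UDP-glucose, at 9.34 (668 reads) and 8.58 (395 reads), a log2 fold change of -0.76 (-0.94 to -0.58) that is close in size to that of P2rx7. Among the lysophosphatidylserine receptors, Gpr174 was at 10.65 and 10.63. The other adenosine receptors were near or at 0 in the library labelled WT, and Adora1, named after its values were seen, had 0 reads there and 9 in that labelled Chi3l1 KO, and the interval of its log2 fold change started at 0.98.

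Of the 7 genes of adenosine uptake and breakdown, Ada among them, 3 were higher and 4 lower. The nucleoside transporter Slc29a1 was at 15.43 in the library labelled WT and 15.12 in that labelled Chi3l1 KO. Adenosine kinase Adk and the next enzyme after Ada, Pnp, both named after their values were seen, were higher in the library labelled Chi3l1 KO, Adk by 0.89 (0.65 to 1.14; 218 and 405 reads) and Pnp by 0.68 (0.56 to 0.81; 813 and 1309 reads). With the GC trend removed Adk came to 0.66 and Pnp to 0.56, the latter within 1.5-fold. In the NAD arm 3 of 4 genes were higher. Art2b and the pseudogene Art2a-ps among them are uncertain, since the sequence they share was not measured, and without them Cd38 and Bst1 were both higher. The NAD-consuming enzyme Cd38 was at 5.98 (64 reads) and 6.77 (112 reads). Its log2 fold change of 0.80 came to 0.57, within 1.5-fold, with the GC trend removed. Of the 9 cyclic AMP signalling genes 2 were higher and 7 lower. Gnas, the stimulatory G protein subunit that A2a and A2b act through, was at 18.94 and 18.88. Crem, a cyclic AMP-responsive factor named after its values were seen, was at 13.13 (9279 reads) and 13.74 (14172 reads). With the GC trend removed, the Crem log2 fold change of 0.61 came to 0.41. The most negative log2 fold change of the 9 was -0.33, that of Prkaca, also named after its values were seen.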

How the data were processed

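RNA of Th1 cells was sequenced in 2 libraries, 1 per genotype, grouped by their labels. The authors selected polyadenylated RNA, sequenced paired ends of 100 bases, mapped them with TopHat and used edgeR on counts that include multiple alignments. The submitters' processing notes name mm10, the methods state the R and Bioconductor releases, and the annotation and the versions of TopHat and edgeR are not given in the sources used here. The deposited values were taken to be log2 (normalized count plus 1), a unit inferred because low values lie on even steps. The worth of 1 read varies slightly between genes, so rebuilt reads of high genes are approximate. Counting several alignments can put a read on near-identical genes.

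Fold changes, intervals and list counts were computed with python 3.11.15, numpy 2.4.6, pandas 2.3.3 and scipy 1.17.1, and scripts were tested on simulated data. Lengths, GC content and positions came from GENCODE M21 (GRCm38) and promoters from RefSeq. Fixed for naming were the 8 genes, listed pathway genes at or past 2-fold that reached a log2 value of 5, the highest gene of each role, and Chil1. The members and lists were chosen with earlier results of these data known. The alternatives were a pseudocount of 0.1, quantile normalization, scaling by median ratios, by Actb or by total reads without Rn45s, removal of the GC trend in 20 bins over genes of log2 value 8 or more in both libraries, a floor of 5 and a 1.5-fold threshold. No likeness between genes was computed over 2 libraries.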

Additional observations from a re-analysis of the deposited data

How the results depend on the processing

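Across the 8 genes and 6 alternative settings, 40 of 48 fold changes stayed inside the read-sampling interval and 8 did not. Signs turned for Adora2a under scaling to Actb (0.06), total reads without Rn45s (0.09) and GC trend removal (0.32), and for Ada under total reads without Rn45s (0.00074). Scaling to Actb and to total reads without Rn45s raised the median of the 11496 genes of log2 value 6 or more by 0.12 and 0.14. Against those medians Adora2a and Ada lay lower, as they did as deposited, and the other 6 genes kept their signs under all 6 settings. No member was past 2-fold in either direction under these 6 settings, and with a 1.5-fold threshold 1 was higher and 1 lower. The median over the 8 genes was -0.23 as deposited and stayed negative, at -0.12 with scaling to Actb, -0.09 with total reads without Rn45s and -0.26 to -0.23 under the other 4. Of the pathway list, 3 genes were past 2-fold higher as deposited, 5 with a pseudocount of 0.1, 6 with quantile normalization, 6 with scaling to Actb, 6 with total reads without Rn45s, 1 with a floor of log2 value 5 and 12 at 1.5-fold. Of the genes past 2-fold lower, there were 6 as deposited, 7 with a pseudocount of 0.1 and 5 with quantile normalization. With the floor of 5 there was 1, and at 1.5-fold there were 9. Scaling to Actb, total reads without Rn45s and GC trend removal gave 4 each. The balance of 3 higher and 6 lower thus became 6 and 4 under the first 2 of these. Under quantile normalization it became 6 and 5, and at 1.5-fold 12 and 9. The cause was not tested, except that the floor tests fewer genes. No paired analysis was possible because each genotype has 1 library, and for the same reason no library could be left out. Depth limits Entpd1 most, with 79 and 128 reads.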
